A study of Mus musculus with 2 samples.

Results

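The strong SREBP-2 peaks of mouse liver are the regions of the deposited peak list at which SREBP-2 reads exceeded control reads most. They were chosen by a ratio above 5 between the SREBP-2 and the IgG chromatin immunoprecipitation, and 252 of the 1800 peaks (14%) met this rule. The other 1548 peaks are the comparison. For the ratio, each distinct read position (chromosome, 5′ end and strand) counted once, and each 5′ end was moved 100 bp downstream. Then 1 read was added to each count in a peak, and each count was divided by the distinct positions of its library.

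SREBP-2 is a transcription factor held in the endoplasmic reticulum membrane while sterols are plentiful. When sterols run low it is escorted to the Golgi and cut, and its amino-terminal part enters the nucleus and binds sterol regulatory elements. In liver it is known as the main activator of cholesterol synthesis and of low-density lipoprotein uptake. In ChIP-seq, a site bound by such a factor appears as a narrow summit of reads, with plus-strand reads on its left and minus-strand reads on its right.

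Both libraries came from liver of C57BL/6 mice. One was made with an antibody to the nuclear, amino-terminal domain of mouse SREBP-2, the other with IgG as the control. Fragments of 200 bp were selected for both, per the labels' protocols. The sources used here do not give sex, age, diet, the number of animals or the genome build. The SREBP-2 library held 7312431 reads at 2396147 distinct positions, and the IgG library 12762782 reads at 7011345. There is 1 sample per antibody, so the spread between animals is unknown, and no test was run. Intervals are exact 95% Clopper-Pearson intervals that cover counting error only, since copies made by PCR were not marked and cannot be told from separate fragments. For the ratio of a single peak, the interval was computed from the counts without the added read. A ratio and its interval thus differ in this, most where IgG reads are few. Intervals of medians come from binomial order statistics over the peaks and describe the spread over peaks only. No genome of a build known to match was used, so peaks are named by their deposited position and neither genes nor sequences are given.

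The ratio, and everything counted from the same reads in the same peaks, chose the strong peaks and is given as a description. Their median ratio was 6.18 (25th to 75th percentile 5.47 to 7.80), and that of the other peaks 2.93. A ratio above 10 was reached by 32 of them. The lowest strong ratio was 5.02 and the highest ratio below the rule was 4.97, with 67 peaks between 5 and 5.5 and 86 between 4.5 and 5. The rule thus cut through a continuous distribution. Just above it, the peak on chromosome 10 at 80164430 to 80164988 held 47 SREBP-2 and 27 IgG reads. Also just above it, the peaks at 79389647 on chromosome 10 and at 85491376 on chromosome 15 each held 11 and 6. Just below it, the peak on chromosome 12 at 45370136 held 33 and 19 reads, and those at 76487230 on chromosome 15 and 154261972 on chromosome 2 each held 16 and 9. Ratios of few reads repeat: 7 peaks shared the lowest strong ratio and 4 the highest ratio below it.

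**Figure D1:**
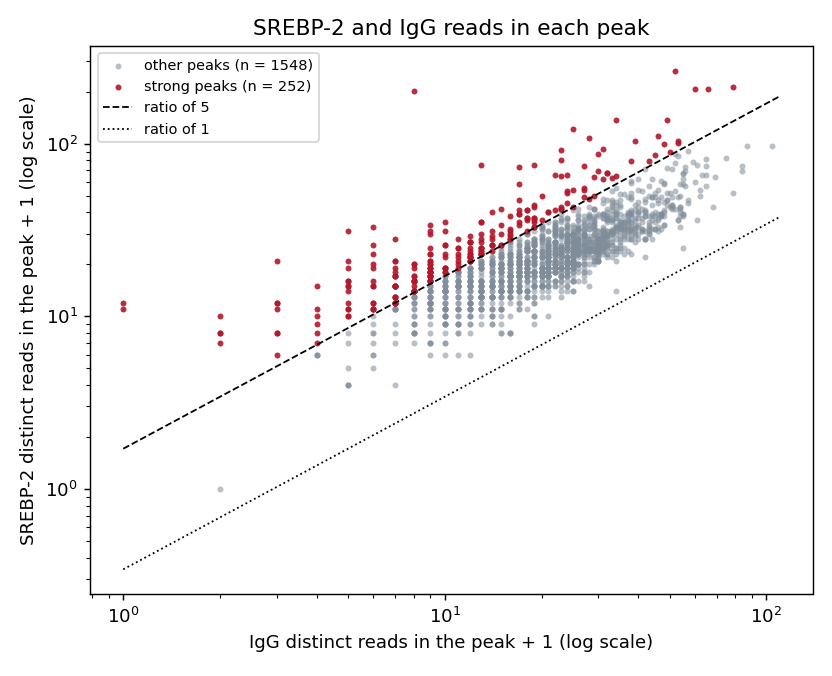
Distinct SREBP-2 reads (y axis) against distinct IgG reads (x axis) in each of the 1800 peaks, both plus 1 on log scales, with dashed and dotted lines at ratios of 5 and 1. The 252 strong peaks lie above the dashed line and run from peaks with almost no IgG read to peaks with over 50 reads of each library.

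Some strong peaks held many SREBP-2 reads, and many held few IgG reads. The median SREBP-2 count was 22.5 reads in strong and 21 in other peaks, while the median IgG count was 10 in strong and 21 in other peaks. Of the strong peaks, 128 (50.8%) held at most 10 IgG reads, as did 167 of the other peaks (10.8%). Only 42 strong peaks held at least 50 SREBP-2 reads, 154 held at least 20, and 98 held fewer than 20. Read density, as RPKM (distinct reads scaled by peak length in kb and by library depth), had a median of 28.8 for SREBP-2 in strong peaks and 22.4 in other peaks. For IgG it was 4.51 in strong and 7.59 in other peaks. Together the strong peaks covered 91.0 kb, 12.5% of the length of all peaks, and held 19.5% of the SREBP-2 and 8.90% of the IgG reads found in peaks.

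How firmly a ratio above 5 was measured varied widely. All 252 strong peaks had a lower bound above 1, where 92.4% of all peaks did. The lower bound exceeded 2 at 236 of them (29.2% of all peaks), 3 at 136 (8.06% of all peaks) and 5 at 32 (1.78% of all peaks). Those with 6 to 10 IgG reads, 83 in number, had a median lower bound of 2.54. The 46 with at least 21 IgG reads had a median lower bound of 4.07, on a median of 67.5 SREBP-2 reads. With 0 to 2 IgG reads (13 peaks) the median lower bound was 3.12, with 3 to 5 (32 peaks) 2.79 and with 11 to 20 (78 peaks) 3.09, so it was lowest in the class of 6 to 10 and highest from 21 upwards.

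The share of strong peaks depended on depth at its upper end. It was 13.3% (10.1% to 17.1%) among the 398 peaks with up to 14 SREBP-2 reads and 10.96% (8.54% to 13.8%) among the 584 with 20 to 29. Among the 335 peaks with 30 to 49 reads it was 14.3% (10.8% to 18.5%). Of the 93 peaks with at least 50 reads, 42 were strong, or 45.2% (34.8% to 55.8%). These shares rest on the reads that chose the peaks.

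**Figure D2:**
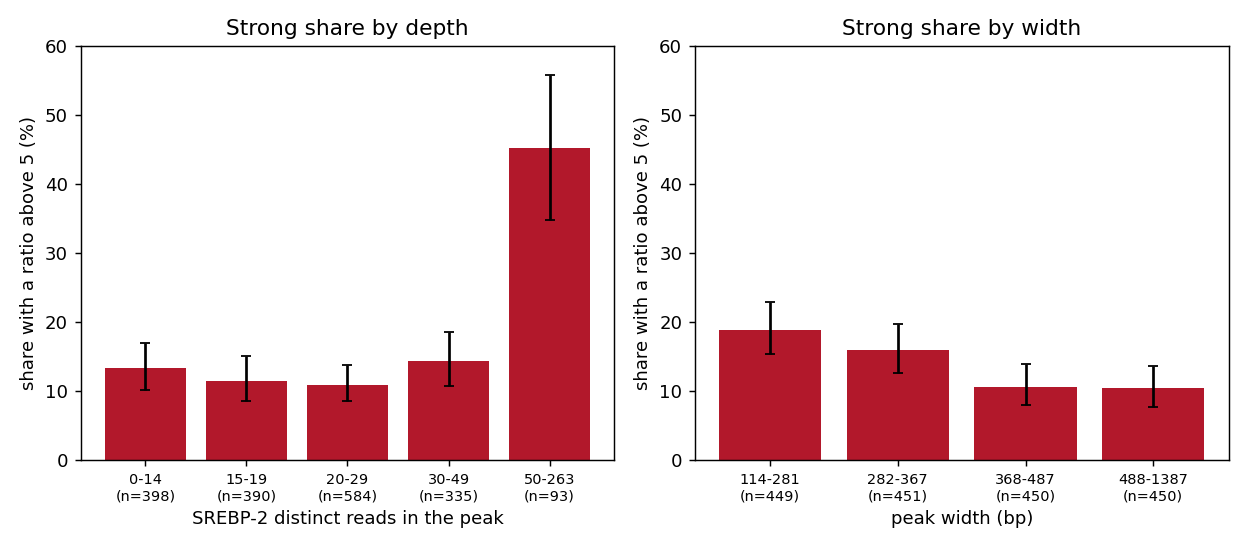
Share of peaks with a ratio above 5 (y axis, percent) by the number of distinct SREBP-2 reads in the peak (left) and by peak width in bp in 4 classes of near-equal size (right); bars are shares with exact 95% intervals, and n is the number of peaks. The share is 45.2% from 50 reads upwards and 18.9% in the narrowest class.

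The firmest strong peaks, by the lower bound of the ratio, are described next, and the peak with the highest ratio follows with the copies per position. The region at 67212235 to 67212797 of chromosome 8 held 263 SREBP-2 and 51 IgG reads, the most SREBP-2 reads of any peak (ratio 14.9, interval 11.1 to 20.8). Chromosome 5 carried one at 44339307 to 44339650, where 74 SREBP-2 reads met 12 of IgG (ratio 16.9, 9.74 to 36.5). Also on that chromosome, 120 and 24 reads lay at 125946123 to 125946548 (ratio 14.2, 9.38 to 23.7). All 3 rest on at least 12 control reads. The region at 59146231 to 59146790 of chromosome 15 held 136 and 33 reads (ratio 11.8, 8.19 to 18.2). Counts of 206 and 59 were found at 4104286 to 4105008 of chromosome 5 (ratio 10.1, 7.62 to 13.9). Nearly as many reads lay in the peak at 28397452 to 28398264 of chromosome 5, with 205 and 65 (ratio 9.13, 6.95 to 12.4). The widest strong peak, on chromosome 11 at 120685129 to 120686236 (1108 bp), belongs with these by depth, with 211 SREBP-2 and 78 IgG reads and a ratio of 7.85 (6.08 to 10.4).

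Another 4 of the firmest peaks held between 72 and 107 SREBP-2 reads. They lay on chromosome 8 at 107115538 (72 SREBP-2 and 16 IgG reads), chromosome 9 at 42072206 (107 and 27), chromosome 14 at 67487565 (91 and 22) and chromosome 15 at 31383271 (74 and 18). Their ratios were 12.6, 11.3, 11.7 and 11.6 in that order. The strand offset, defined below, lay between 94 and 126.5 bp at these 4.

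A further 4 of the 15 firmest peaks owe their place to a nearly empty control. The region at 188529184 to 188529378 of chromosome 1 held 11 SREBP-2 reads and no IgG read, so that its ratio of 35.1 rests on the added read. Its interval, taken without that read, has only a lower bound, 7.34. The peak on chromosome 9 at 42087968 held 20 SREBP-2 and 2 IgG reads (ratio 20.5, 7.11 to 258). On chromosome 14, the peak at 58690861 held 32 and 5 (ratio 16.1, 7.24 to 61.6). On chromosome 6, the peak at 146700280 held 30 and 4 (ratio 18.1, 7.73 to 85.7). Their upper bounds are open or far from the ratio, so the size of their ratios is poorly known. Their place among the 15 rests on the lower bound alone. One other strong peak, on chromosome 8 at 64533588 and named after its values were seen, held 10 SREBP-2 reads and no IgG read (lower bound 6.56).

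Strong peaks were narrower than the other peaks under the rule as given. The median width was 319.5 bp (interval 299 to 343; range 120 to 1108) in strong peaks and 375 bp (366 to 386; range 114 to 1387) in other peaks. Of the 449 narrowest peaks, 114 to 281 bp, 18.9% were strong (15.4% to 22.9%), and of the 450 widest, from 488 bp, 10.4% (7.78% to 13.6%). Width and read number go together. Among peaks with 20 to 29 SREBP-2 reads the median width was 327 bp in strong and 422 bp in other peaks. From 50 reads upwards it was 559.5 and 788 bp. At like numbers of SREBP-2 reads the strong peaks were thus the narrower ones in each of the 5 depth classes. The rule itself favours this, since at a given SREBP-2 count it picks peaks with few IgG reads. IgG reads were fewer in narrow peaks, with medians of 12 in the narrowest and 33 in the widest class of other peaks. The part of the rule in the widths was not tested. The order of the medians was not a fixed feature of strong enrichment, since it turned when strong meant a lower bound above 3 (389 bp in strong and 365 bp in other peaks) or a ratio above 5 against the 37-base IgG reads alone (386.5 and 346.5 bp). The 37-base reads were few, with a median of 1 in strong and 2 in other peaks of the rule as given. The added read therefore weighs heavily in that ratio.

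The SREBP-2 profile of the strong peaks was higher than that of the other peaks. Within 100 bp of the midpoint, the mean SREBP-2 density was 45.5 RPKM in strong peaks and 27.8 in other peaks. At 1500 to 2000 bp it was 0.924 and 0.994. The centre-to-flank ratio was 49.2 (45.1 to 53.8) in strong and 28.0 (27.0 to 28.97) in other peaks. The profile was 275 bp wide in both sets, measured at 50% of the rise over the flanks. This equality depended on the setting, since with reads moved by 47 bp the widths were 175 bp in strong and 225 bp in other peaks, with at least 20 SREBP-2 reads 275 and 350 bp, and with strong meaning a ratio above 4 they were 275 and 325 bp. With flanks at 1000 to 1500 bp the 2 ratios were 30.4 and 20.8, so the flank sets their size, and the order was the same. The profile was built from reads that chose the strong peaks, as was that of IgG.

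IgG reads also rose at the strong peaks, but less than at the other peaks, as the rule favours. Their density within 100 bp of the midpoint was 5.00 in strong and 8.14 in other peaks, with flanks of 0.966 and 1.01. The centre-to-flank ratio of IgG was 5.17 (4.84 to 5.53) in strong and 8.03 (7.84 to 8.22) in other peaks, and both profiles were 725 bp wide at 50% of height. The IgG widths moved with the setting. They were 575 bp in strong and 750 bp in other peaks with all reads as deposited, and 850 and 725 bp above a ratio of 4. Against the 37-base IgG reads alone they were 25 and 350 bp, so no order is read from them. The control was thus raised at the strong peaks too. In the 42 strong peaks with at least 50 SREBP-2 reads the IgG ratio was 7 (6.09 to 8.05) and the SREBP-2 ratio 101 (83.0 to 125). In the 51 other peaks of that depth they were 9.65 (8.55 to 10.9) and 39.2 (32.9 to 47.02), and the SREBP-2 profile was 325 bp wide in the strong and 475 bp in the other peaks. The 98 strong peaks with under 20 reads had an SREBP-2 ratio of 28.3 (24.3 to 33.0), against 25.2 (23.8 to 26.7) in the 690 other peaks of that depth. There it was the IgG ratio that differed, at 3.30 (2.92 to 3.73) in strong and 7.75 (7.46 to 8.04) in other peaks.

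**Figure D3:**
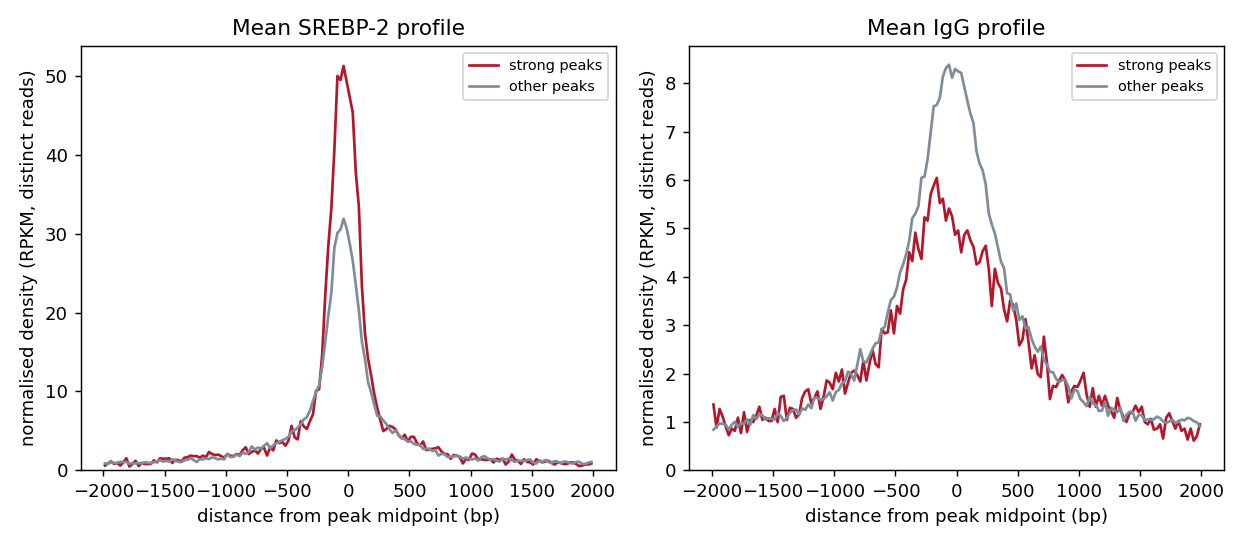
Mean normalised density (y axis, RPKM of distinct reads) by distance from the peak midpoint in bp (x axis, steps of 25 bp), for SREBP-2 (left) and IgG (right), in the 252 strong and 1548 other peaks. The SREBP-2 summit is higher in the strong peaks (45.5 against 27.8 RPKM within 100 bp of the midpoint), the IgG summit is lower (5.00 against 8.14), and the curves meet in the flanks.

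The excess of SREBP-2 over IgG fell off close to the peaks. From the midpoint to 100 bp the pooled ratio at strong peaks was 9.10 (8.62 to 9.61), and from 100 to 250 bp 3.83 (3.64 to 4.03). It was 1.38 (1.30 to 1.46) from 250 to 500 bp, 1.16 (1.09 to 1.23) from 500 to 1000 bp and 1.02 (0.961 to 1.08) from 1000 to 2000 bp. At the other peaks the same distances gave 3.41, 2.11, 1.25 (1.22 to 1.28), 1.08 (1.05 to 1.10) and 1.02. From 500 bp outwards the intervals of strong and other peaks overlap.

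Reads outside every peak did not enter the rule and gave nearly the same ratio around strong and other peaks. Between 250 and 1500 bp beyond the peak edges, leaving out reads within 250 bp of any peak, the ratio was 0.998 (0.952 to 1.05) around strong peaks, from 2344 SREBP-2 and 6872 IgG reads. Around the other peaks it was 0.964 (0.946 to 0.982). From 5 to 50 kb it was 0.784 (0.774 to 0.793) around strong and 0.786 (0.782 to 0.790) around other peaks. Its level there depended on the control reads. Against the 36-base IgG reads alone it was 0.739 and 0.741, and against the 37-base IgG reads alone 1.004 and 0.995. At both distances the intervals of strong and other peaks overlap. They did not from 5 to 50 kb around peaks with at least 50 SREBP-2 reads. The ratio there was 0.739 (0.718 to 0.761) around 42 strong and 0.787 (0.767 to 0.808) around 51 other peaks. The SREBP-2 density was 0.637 and 0.639 RPKM, and that of IgG 0.862 and 0.812. Against the 37-base IgG reads alone the intervals overlap (0.946 to 1.03 and 0.982 to 1.06). Reads were pooled over the peaks, so the spread between peaks is not covered and no difference is read from this.

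Inside the peaks, SREBP-2 reads were more gathered in strong ones. Among peaks with at least 20 reads, a median of 42.9% of the SREBP-2 reads of a strong peak (40.0% to 44.9%) lay within 50 bp of its summit, the 50 bp window with most reads. In the other peaks it was 34.5% (33.3% to 35.0%). In the class of 20 to 29 reads the medians were 46.2% and 37.7%, and from 50 reads upwards 38.3% and 24.5%. The strong peaks of these classes were also narrower, by the widths given above, and the part of width in this was not tested. Summits lay a median of 36.5 bp before the midpoint in strong and 33 bp before it in other peaks, so both sets leaned alike towards lower coordinates. Without regard to direction, the median distance from summit to midpoint was 52.5 bp (42 to 62) in strong and 63.6 bp (58 to 68) in other peaks. These intervals overlap.

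The offset between strands varied less among strong peaks than among other peaks. It is the median 5′ end of the minus-strand reads less that of the plus-strand reads, within the peak and 100 bp to each side. It was taken in peaks with at least 20 SREBP-2 reads and 5 on each strand. Its median was 98 bp (92.5 to 101.5) in 152 strong peaks and 87.5 bp (84 to 91) in 858 other peaks, with 25th to 75th percentiles of 74.4 to 110.6 and 53.6 to 114 bp. Minus-strand reads lay downstream at 148 strong peaks (97.4%, 93.4% to 99.3%) and at 791 other peaks (92.2%, 90.2% to 93.9%). An offset between 50 and 150 bp was found at 135 strong peaks (88.8%, 82.7% to 93.3%) and at 587 other peaks (68.4%, 65.2% to 71.5%). Within classes of SREBP-2 read number the shares were 90.5% and 71.3% with 20 to 29 reads, 85.1% and 63.4% with 30 to 49, and 90.5% and 66.7% from 50 upwards, for strong and other peaks in turn. The median offsets in the same classes were 96 and 86 bp, 90 and 88 bp, and 100.5 and 101.5 bp. In both classes from 30 reads upwards the intervals of these medians overlap, so the difference in medians did not hold at greater depth. Within these classes strong peaks were narrower and held fewer IgG reads, and from 50 reads upwards their median was 78 SREBP-2 reads against 61. The part of these in the offset was not tested.

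**Figure D4:**
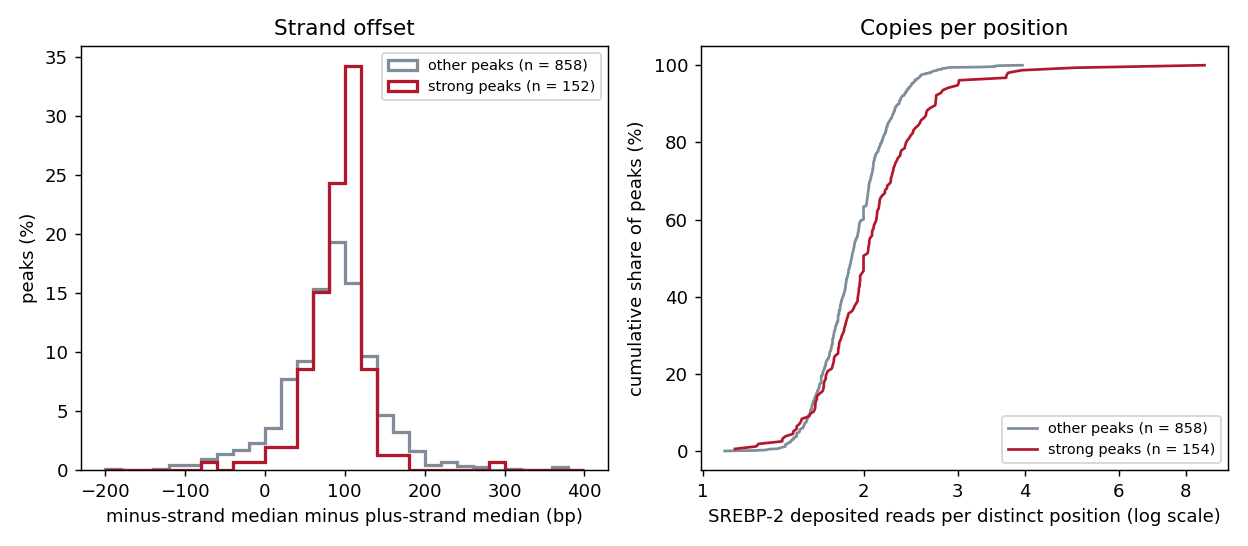
Left: distribution of the strand offset in bp (x axis) as a percentage of peaks (y axis, bins of 20 bp). Right: cumulative share of peaks (y axis, percent) by SREBP-2 deposited reads per distinct position (x axis, log scale); both for peaks with at least 20 SREBP-2 reads. The strong peaks gather around an offset of 98 bp. Their highest value of copies, 8.68 reads per position, is that of a single peak (chromosome 11 at 7099732), and the next is 4.97. None of the other peaks of that depth exceeds 3.96.

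Copies per position, the number of deposited reads divided by distinct positions, are not independent of the rule: it counts each position once and leaves the copies out, but the number of positions they are divided by is the count it uses. The median over peaks was 2 (1.94 to 2.06) in strong and 1.90 (1.88 to 1.92) in other peaks, both below the 3.05 of the whole library. In the 42 strong peaks with at least 50 SREBP-2 reads it was 2.20 (2.09 to 2.40), and in the 51 other peaks of that depth 1.96 (1.83 to 2.06). With 20 to 29 reads it was 1.96 (1.8 to 2.05) and 1.89 (1.86 to 1.92), intervals that overlap. IgG copies had medians of 1.5 in strong and 1.47 in other peaks. Of the 154 strong peaks with at least 20 reads, 28 (18.2%, 12.4% to 25.2%) exceeded the 95th percentile of the other peaks of that depth, 2.46 copies. Pooled over all reads the strong peaks had 2.32 copies per position, and 2.16 without the peak of the highest ratio.

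That peak, on chromosome 11 at 7099732 to 7099990 (259 bp), held 202 distinct SREBP-2 reads and 7 IgG reads, for a ratio of 74.2 (40.2 to 213). Its distinct positions carried 8.68 reads each, 1753 in all. A single position held 326 of them, 18.6% of the reads in the peak, where the median largest stack of a strong peak was 5 reads. Within 100 bp of its edges its distinct reads were even between strands, 132 plus and 130 minus, with an offset of 26 bp. With all reads as deposited its ratio was 219. Without it the ratio of the pooled shares over strong peaks was 7.25 in place of 7.41.

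The next 2 by copies among strong peaks with at least 20 reads were uneven between strands. The region at 146700280 to 146700593 of chromosome 6 had 4.97 copies per position, with 4 plus and 26 minus reads. That at 73245533 to 73245844 of chromosome 5 had 3.95, with 17 plus and 4 minus reads (20 SREBP-2 and 8 IgG reads in the peak, ratio 6.83). In no other strong peak with at least 20 reads, and in 0 of the 858 other peaks of that depth (which allows a share of up to 0.350%, taken as 3 counts), did 1 strand hold under 20% of the reads. The median share of the lesser strand was 46.2% in strong and 45.5% in other peaks. The narrowest strong peak, on chromosome 1 at 45702331 to 45702450 (120 bp), had 12 plus and no minus reads within 100 bp of its edges, at 3.55 copies per position. Its ratio of 11.7 (3.51 to 149) came from 11 SREBP-2 and 2 IgG reads. At these 3 most reads lay on 1 strand, and the peak on chromosome 9 at 42087968 was also uneven (17 plus and 6 minus, 3.7 copies). Uneven peaks were found in both sets once shallow peaks were counted. Over all depths 1 strand held under 20% of the reads at 4 of 252 strong peaks (1.59%, 0.434% to 4.01%). Among the 1548 other peaks it did at 8 (0.517%, 0.223% to 1.02%), and the intervals overlap. All reads lay on 1 strand at 1 peak of each set.

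Strong peaks had a neighbour within 10 kb about as often as other peaks did. Another peak midpoint of any kind lay within 10 kb at 34 strong peaks (13.5%, 9.53% to 18.3%) and at 196 other peaks (12.7%, 11.04% to 14.4%), intervals that overlap. Of the 120 adjacent pairs of peaks within 10 kb, 1 joined 2 strong peaks, 32 joined a strong and another peak, and 87 joined none. No strong peak lay within 1 kb of another strong one (0 of 252, which allows a share of up to 1.19%, taken as 3 counts), and 23 had a neighbouring peak that close. With 14% of all peaks strong, pairs of 2 strong peaks would be few among the 76 adjacent pairs within 1 kb and the 120 within 10 kb. No avoidance between strong peaks is read from these counts. In the 32 mixed pairs the strong peak held fewer IgG reads than its neighbour in 26, more SREBP-2 reads in 16, and was narrower in 19. The neighbours had a median ratio of 2.80 (range 1.60 to 4.68). The same reads decided which peak of a pair was strong. The rule thus favours fewer IgG reads in the strong peak and sets the neighbour's ratio below it, so these values are a description.

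The single close pair lay on chromosome 5, where the peak at 125946123 (120 SREBP-2 and 24 IgG reads) and that at 125956025 to 125956591 (89 and 49, ratio 5.27) were 9.97 kb apart. Up to 50 kb there were 9 pairs of successive strong peaks on 5 chromosomes. At that distance 72 of the 252 strong peaks had a neighbour of any kind (28.6%), as did 374 of the 1548 other peaks (24.2%). Of the 72 strong peaks, 17 had a strong one, which is 6.75% of the 252. The 14% of all peaks that were strong is a share of peaks, not of neighbours, and is not set against the 6.75%. The share of other peaks with a strong neighbour was not counted. No clustering of strong peaks is therefore read from the 17 or from the 9 pairs. On chromosome 5 a run of 3, singled out after the values were seen, began at 28364753 (22 and 9 reads, ratio 6.73), went on at 28382164 (13 and 7, ratio 5.12) and ended at 28397452, the peak with 205 SREBP-2 reads. The middle one was uneven between strands, with 2 plus and 15 minus reads. On chromosome 9 the peaks at 42072206 and 42087968 were 15.7 kb apart. On chromosome 11, in a pair likewise chosen after its values were seen, those at 60023836 (46 and 16 reads, ratio 8.09) and 60036202 (51 and 23, ratio 6.34) were 12.4 kb apart.

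The share of strong peaks differed little between chromosomes beyond counting error. Among chromosomes with at least 50 peaks it ran from 5.26% on chromosome 16 (3 of 57, 1.10% to 14.6%) to 23.5% on chromosome 6 (20 of 85, 15.004% to 34.0%), around the 14% of all peaks. Chromosome 6 alone had an interval wholly above 14%, and no chromosome had one wholly below it. The 19 intervals were not adjusted for their number. Chromosome 5 held the most strong peaks, 24 of 147 (16.3%, 10.7% to 23.3%). Chromosome X held 3 of its 9 peaks (33.3%, 7.49% to 70.1%), too few to place.

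Each chromosome was divided into 10 equal stretches, from the start of its coordinates to its last read, and strong peaks were compared with other peaks along them. The last 3 stretches held 109 strong peaks (43.3%, 37.1% to 49.6%) and 568 other peaks (36.7%, 34.3% to 39.1%), intervals that overlap. The first 3 held 22.6% and 22.1%. The highest share of strong peaks in a stretch was 18.8% (42 of 223, 13.9% to 24.6%), in the ninth, close to the 18.6% (19 of 102) of the first. The last had 13.9% (36 of 259), and the lowest share was 10.2% (19 of 186, 6.26% to 15.5%), in the sixth. The intervals of the ninth and the sixth overlap, and no trend along the chromosomes is read from these values.

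**Figure D5:**
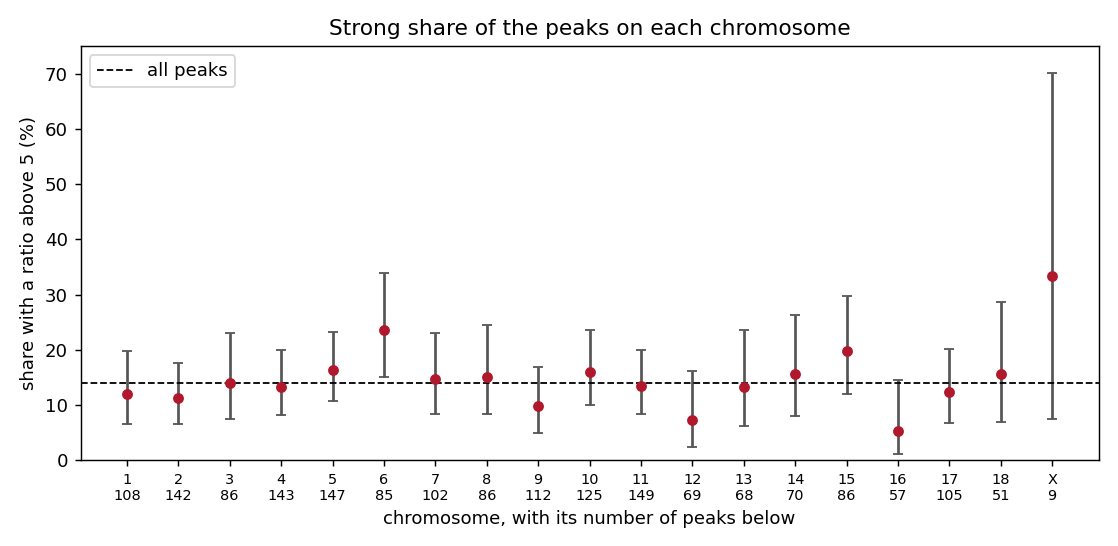
Share of peaks with a ratio above 5 (y axis, percent) on each chromosome (x axis, with its number of peaks), as points with exact 95% intervals; the dashed line marks all peaks. The points run from 5.26% on chromosome 16 to 33.3% on chromosome X, where 9 peaks give the widest interval.

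The control decided part of the membership. The IgG reads have lengths of 36 and 37 bases, and each was also used alone. The median count of 36-base reads was 9 in strong and 19 in other peaks. For 37-base reads it was 1 and 2, so the added read weighs heavily there. The 37-base reads also rose less at the peaks. Their centre-to-flank ratio was 2.53 in strong and 4.11 in other peaks, where that of the 36-base reads was 5.82 and 8.79. The part of either in the counts that follow was not tested. Against the 36-base reads 155 of the 252 strong peaks again had a ratio above 5 (9% of all peaks did), and against the 37-base reads 203 (55.4% of all peaks). Both held at 117. With all reads as deposited 135 kept a ratio above 5 (8.06% of all peaks), and with reads moved by 47 bp 208 (15.1% of all peaks). Under all 4 settings 94 strong peaks did.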

How the data were processed

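The authors deposited 1 file of aligned reads for each library and 1 list of SREBP-2 peak regions. The values used are positions in bp (chromosome, start, end and strand), and the deposited score column holds 1 on every line and was not used. The sources used here do not give the aligner, the peak caller, its thresholds or the genome build. Starts were taken to be 0-based and are printed 1-based. Samples were grouped by antibody, 1 sample each. The peak list used here covers 19 of the 21 chromosomes with reads, without chromosomes 19 and Y. It may be incomplete, which would change shares of all peaks and shares per chromosome.

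Reads were counted with Python 3.11.15, numpy 2.4.6, pandas 2.3.3 and scipy 1.17.1, and figures drawn with matplotlib 3.10.9. Density is given as RPKM, computed here from distinct reads. Counts used 1 read per position and strand and a shift of 100 bp, and the counting was tested on simulated reads. Profiles were counted in steps of 25 bp. Named peaks are the 15 strong peaks with the highest lower bound, the 3 nearest the rule on each side (ties in order of chromosome and position), the widest and the narrowest, the 3 with most copies among those with at least 20 reads, and the nearest strong pair. Peaks outside this rule are marked as chosen after their values were seen. The strong peaks, the measures and the alternatives were chosen with earlier results of these data known. Sequences and genes were not used here, for want of a genome of the build.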

Additional observations from a re-analysis of the deposited data

How the results depend on the processing

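No paired analysis was possible because each antibody has 1 sample. A value was taken as moved when it left the interval of the value reported (for the number of strong peaks, a factor of 1.5). Of 85 values recomputed, leaving out profile widths and single peaks, 46 stayed and 39 moved, in every case with the strong peaks chosen again where the setting changes the ratio. The count of 252 became 162 against the 36-base IgG reads, 998 against the 37-base reads, 145 with all reads as deposited, 479 above a ratio of 4, 84 above 7, 145 with a lower bound above 3 and 154 with at least 20 SREBP-2 reads. In the following, values are for strong peaks. Against the 36-base reads the SREBP-2 centre-to-flank ratio was 54.1. Against the 37-base reads it was 36.9, the IgG ratio 2.10, the width 386.5 bp, copies 1.93, the strand offset 90.5 bp and the strong share 54.1% on chromosome 6 and 56.1% on chromosome 16. With all reads the IgG ratio was 3.98 and copies 2.26. Above a ratio of 4 the SREBP-2 and IgG ratios were 44.4 and 5.70, copies 1.93 and the shares on chromosomes 6 and 16 38.8% and 22.8%. Above 7 they were 72.4 and 4.74, copies 2.17, the width 296 bp and the share on chromosome 6 10.6%. With a lower bound above 3 they were 65.2 and 5.99, the width 389 bp and the share on chromosome 16 0%. With at least 20 reads they were 60.9 and 6.38, the width 384.5 bp and the share on chromosome 16 0%. With flanks at 1000 to 1500 bp they were 30.4 and 3.56. The share with another peak near was 28.6% within 50 kb, and 4.76% when peaks under 1 kb apart counted as 1. The cause of these moves was not tested, apart from settings that change by construction how many peaks are chosen.

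Leaving out the number of peaks and the profile widths, the order of strong and other peaks stayed in 69 of 76 values. It turned for width against the 37-base reads and with the lower bound above 3. The profile widths, equal in both sets as reported, differed under 3 settings for SREBP-2 (narrower in strong peaks in each) and under 7 for IgG (in both directions). The order turned for both chromosomes against the 37-base reads. For the share with another peak within 10 kb it turned with the shift of 47 bp (12.5% in strong and 12.8% in other peaks), above a ratio of 7 (11.9% and 12.8%) and with midpoints under 1 kb counted once (4.76% and 5.03%). Leaving out the peak with the highest ratio, an alternative added after seeing the data, moved none of the 9 values. Of 96 ratios of named peaks under 4 settings, 83 stayed within their interval. Depth limits single peaks: 98 of the 252 strong peaks held under 20 SREBP-2 reads.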
